A study of Glycine max with 46 samples.

Results

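The genes described here encode the SWEET and SUC sugar transporters of soybean (Glycine max). They were taken from the gene descriptions deposited with the expression tables: a best Arabidopsis match described as Nodulin MtN3 (42 genes) or as a sucrose transporter or sucrose-proton symporter (16 genes), or a protein family text for the MtN3 family. No family text held the letters MtN3 themselves, and the family is written there as sugar efflux transporter for intercellular exchange. That text added 11 genes, which included Glyma.15G049200 and Glyma.08G183500. The set therefore held 69 of 56044 genes, 53 SWEET and 16 SUC, each represented by its transcript model with the longest cDNA.

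SWEET proteins are passive carriers that let sugars cross a membrane down their gradient, and several release sucrose or hexoses from cells. SUC (also SUT) proteins are sucrose-proton symporters that draw sucrose into cells or out of vacuoles with the proton gradient as the driving force. The seed coat is maternal tissue with no symplastic link to the embryo, so sugar brought by the phloem has to leave coat cells before the embryo can take it up. The hilum is the scar where the seed joined the pod, and the vascular supply enters the coat there.

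Messenger RNA was measured in 46 libraries in 24 groups, and the values are RPKM as computed by the authors, that is read counts scaled to cDNA length in kb and to M (mega) of counted alignments. The dissection comprised hilum (4 libraries) and seed coat without hilum (4) of Williams W43 (genotype i-i RT w1, yellow coat with black hilum), from seeds of 25-50 mg and 50-100 mg fresh weight with 2 biological repeats each. Coat series over seed weights of 10-500 mg came from T157 (4 libraries, an i mutation with imperfect black coat, i R t) and yellow-coated Richland (4, I R t), and from the black-coated Williams mutants W44 (6, i RT w1, an inversion at the I locus) and W55 (2 at 300-500 mg) and W43 (5). W55 is labelled as carrying a deletion at that locus (i R w1 or iRT w1), but its 2 late coats are labelled i-i RT w1.

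Whole seeds at 5 days after flowering came from W55 (2 libraries), T157 (1) and Richland (1), and 5-6 mg coats from W55 (2), UC9 (1, Clark with an i deletion, i R T W1, black), UC508 (1, a Harosoy isoline with defective coats, I r T W1 with Def and net) and UC501 (1, Harosoy, I r T W1, yellow). Single libraries came from coats of RM38 (a brown-coated Clark i isoline, i r T W1), leaves of T157 and Richland, roots of W55 and W54 (the same genotype as W43), all from 4 wk plants, roots of W43 seedlings of 5 days flooded for 12 or 24 h, and flowers of a Williams purple flower isoline (i-i RT w1 with W1). Each line of the coat series had 1 library per seed weight, so weights or lines serve as replicates, and a p-value then measures the spread between these libraries.

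Depth ran between 18.1 M and 545.0 M counted alignments a library. In 3 libraries most alignments fell in models without a description: 88.6% and 80.6% in the W55 coats of 5-6 mg and 56.2% in the W44 coat of 50-100 mg, against 7.58% to 18% in all others. Those alignments count in the denominator of RPKM, and counts of calls that include these libraries are given with and without them. A read that matches near-identical copies may be counted in each of them, so such copies would not be resolved separately. In these bulk tissues, fewer cells of a type and less RNA per cell cannot be told apart.

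Of the 69 genes, 60 reached an RPKM of 1 in at least 1 library, 40 reached 10 and 9 reached 100. The other 9 stayed below 1 everywhere, although each had reads in some library. Among the 60, the highest value was in the flower library for 15 genes, in a late coat of 300-500 mg for 12, in an early coat of 10-100 mg for 8 and in hilum for 7. Flooded roots held the maximum of 11 genes, 6 at 12 h and 5 at 24 h, and leaf (3), root (2) and 5-6 mg coats (2) the remainder. Only 1 gene was at 1 or more in all 46 libraries.

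**Figure D1:**
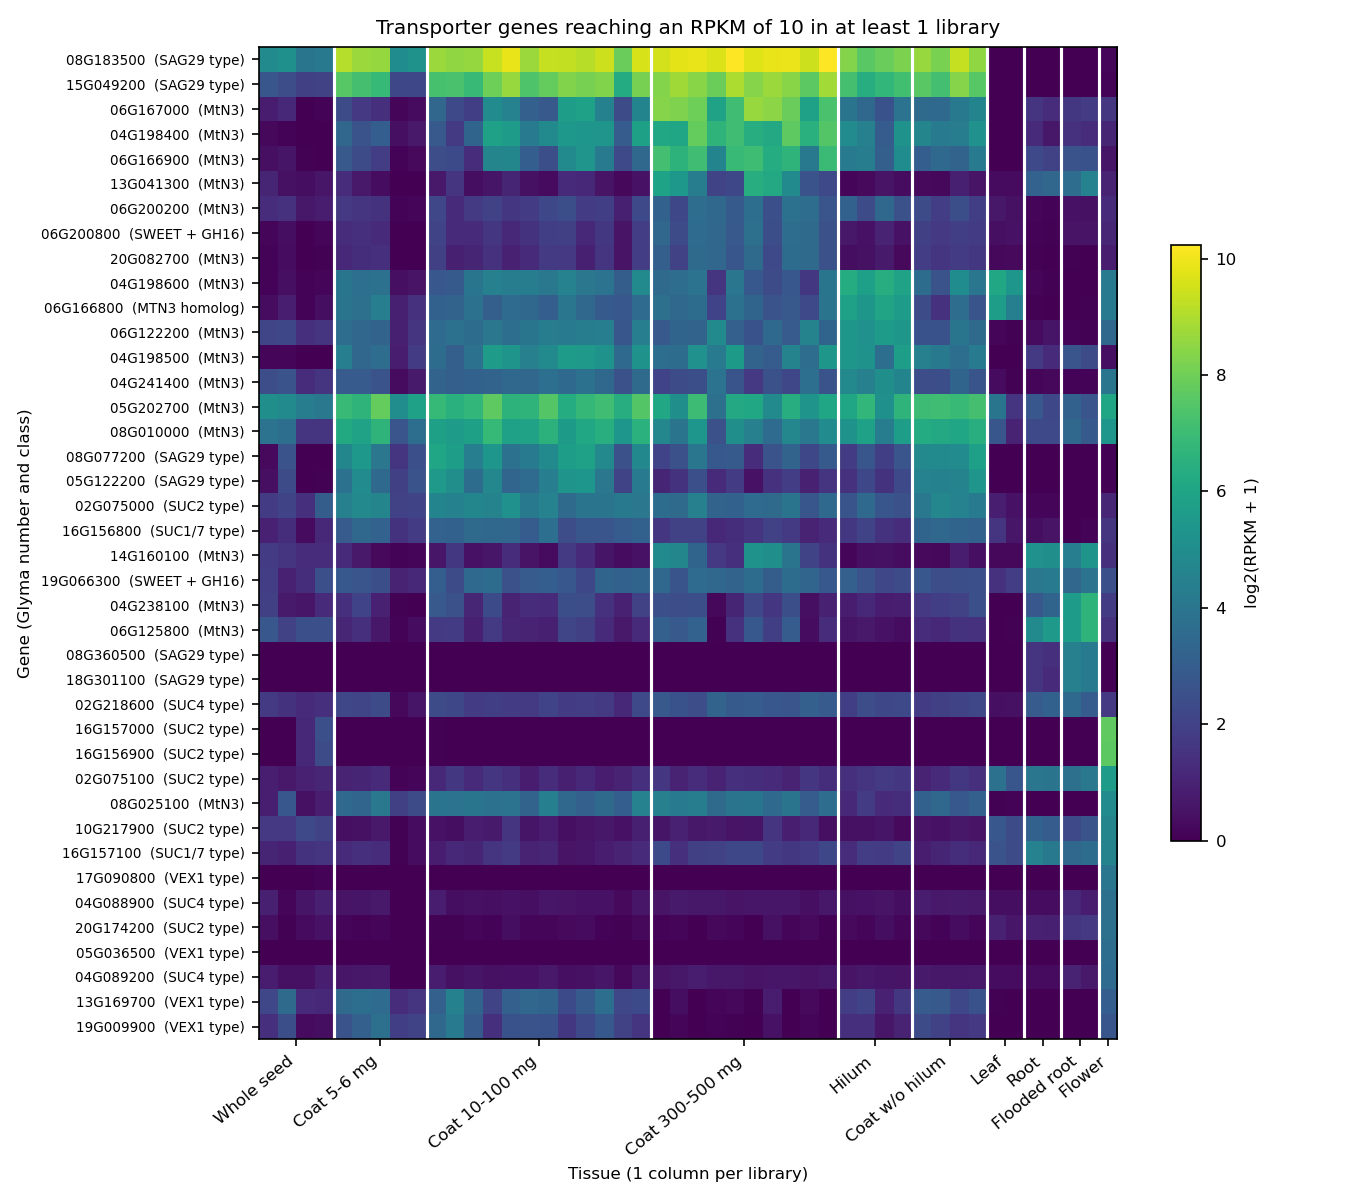
Heat map of log2(RPKM + 1) for the 40 genes that reached an RPKM of 10 in some library (rows) in the 46 libraries (columns), grouped by tissue. The SAG29-type pair Glyma.08G183500 and Glyma.15G049200 stands out across coats and is near 0 in leaf, root and flower, while another block of genes is highest in flower.

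SWEET transcripts exceeded SUC transcripts in every coat library, and in the early and late coats (10 mg and more, not described as freed of hilum) a single pair made up 55.0% to 76.7% of the SWEET sum. Glyma.08G183500 and Glyma.15G049200 match SAG29, the Arabidopsis gene also named SWEET15, which is known from senescing leaves and from seeds. Summed over all 53 SWEET genes, RPKM had a median of 2101 in late coats (range 1250.7 to 2358) and 1382 in early coats, and the pair made up 55.0% to 75.7% of the sum in late coats and 57.4% to 76.7% in early coats. In the W55 coats of 5-6 mg the pair was only 38.9% and 28.5% of the sum, and the top member was Glyma.05G202700 (31.5 and 57.5). In these W55 libraries most alignments fell in models without a description. In the other coats of 5-6 mg the pair was 51.04% (UC9), 66.1% (UC501) and 61.6% (UC508), with Glyma.08G183500 the top member. The 16 SUC genes summed to a median of only 33.5 in late coats and 43.2 in early coats.

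Glyma.08G183500 ranked between the 7th and the 22nd most abundant of all genes in late coats and between the 15th and the 102nd in early coats. It was the more abundant of the pair in every coat library, 2.09 to 3.53 times Glyma.15G049200 in late coats. Outside the seed the pair was almost silent: both had 0 reads in each leaf library, where 3 reads would be an RPKM of 0.0114 to 0.0124, and at most 2 reads in each root library. The flower library held 55 reads of Glyma.08G183500 (RPKM 0.113) and 28 of Glyma.15G049200 (0.0576).

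The hilum differed from the rest of the coat in which SWEET genes it expressed. The MTN3 homolog Glyma.06G166800 and some other MtN3-type genes were higher in hilum. A second pair of SAG29-type genes, Glyma.05G122200 and Glyma.08G077200, was lower, as were further MtN3-type genes such as Glyma.08G025100 and Glyma.08G010000. Differences were tested with limma on log2(RPKM + 1), leaving out genes whose mean RPKM was under 1, with stage in the model and Benjamini-Hochberg adjustment over all 29296 genes tested. Of the 69 transporter genes 34 were tested, of which 6 were called higher and 13 lower in hilum and 15 did not pass. The background in this comparison was 40% of all genes tested, 13.4% called higher and 26.6% called lower, and the median log2 difference was -0.29 for the tested transporters and -0.11 for all genes.

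Glyma.06G166800, whose best match is the MTN3 homolog known in Arabidopsis as SWEET12, a sucrose efflux carrier of the phloem, had an RPKM of 57.5, 41.4, 61.9 and 48.5 in hilum, against 4.14, 1.78, 11.6 and 5.33 in coat without hilum (in both cases 2 libraries of 25-50 mg and then 2 of 50-100 mg). The groups did not overlap, and the log2 difference was 3.18 ± 0.33 (SE, limma adjusted p = 0.000385). Glyma.04G198600 followed the same pattern with 79.5, 53.9, 81.8 and 58 in hilum, against 11.1, 5.07, 30.5 and 15 in coat without hilum (2.29 ± 0.37). In coat without hilum both genes were higher in each 50-100 mg library than in each 25-50 mg library, and the lowest hilum library still lay above the highest of these coats.

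Further MtN3-type genes rose in hilum as well. Glyma.06G122200 had 41.7, 34.8, 48.6 and 41.9 in hilum, against 4.98, 4.97, 14.7 and 10.6 in coat without hilum (2.24 ± 0.21). Glyma.04G241400 had 26.9, 20.9, 33.4 and 23.2 in hilum, against 4.36, 4.5, 8.80 and 5.22 in coat without hilum (2.04 ± 0.18). Each of the 4 hilum libraries was above each coat library for both genes. The remaining 2 genes called higher were of low abundance: the SWEET gene Glyma.13G264400 averaged 3.28 ± 0.33 in hilum and 1.86 ± 0.21 in coat without hilum, and the SUC1/7-type gene Glyma.16G157100 averaged 2.48 ± 0.75 in hilum and 1.15 ± 0.31 in coat without hilum (SD, n = 4 each).

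**Figure D2:**
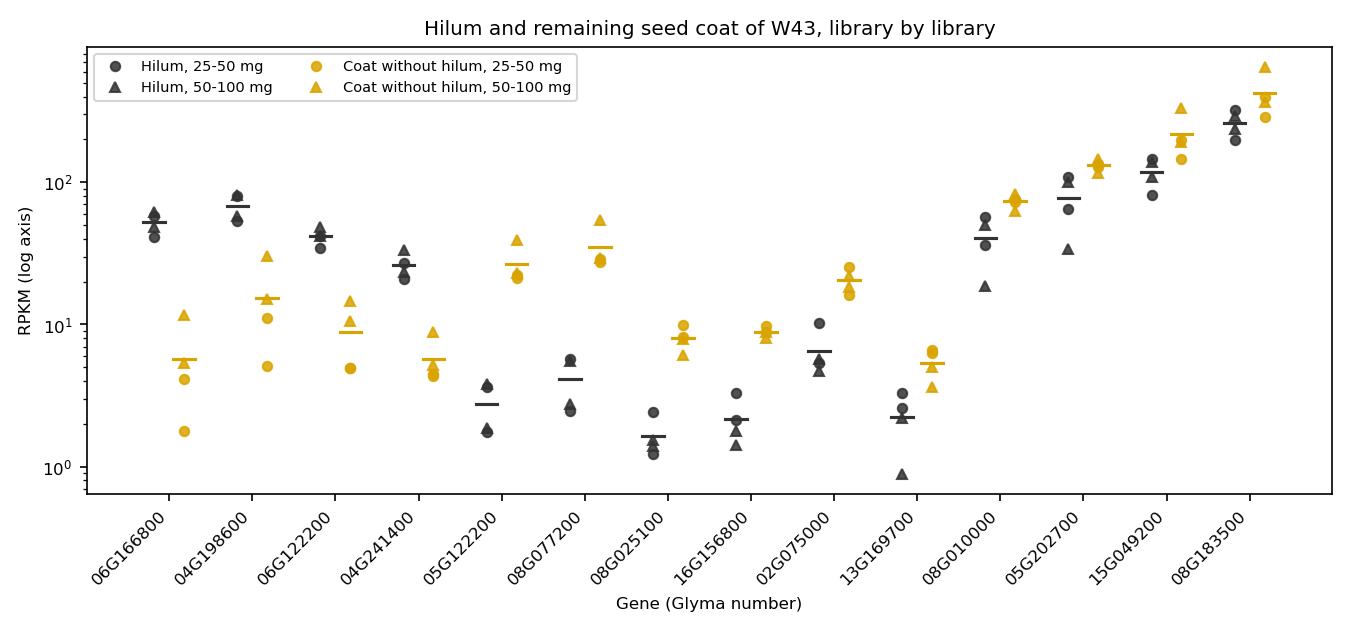
RPKM of 14 transporter genes in each hilum library (left in each panel) and each library of coat without hilum (right); circles are seeds of 25-50 mg, triangles seeds of 50-100 mg, and bars are group means of 4 libraries. Glyma.06G166800 lies at 41.4 to 61.9 in hilum and at 1.78 to 11.6 in coat without hilum, and Glyma.05G122200 shows the opposite order.

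The genes that fell in hilum included another SAG29-type pair. Glyma.05G122200 had 1.74, 3.65, 1.86 and 3.78 in hilum, against 22.2, 21.3, 22.9 and 39.3 in coat without hilum (log2 difference -2.87 ± 0.25, limma adjusted p = 0.000183). Glyma.08G077200 had 2.46, 5.67, 2.76 and 5.53 in hilum, against 27.3, 28.7, 29.5 and 54.4 in coat without hilum (-2.82 ± 0.29). For both genes the highest hilum library was well below the lowest coat library.

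Among other SWEET genes, Glyma.08G025100 had 1.22, 2.41, 1.40 and 1.55 in hilum, against 8.13, 9.85, 6.10 and 7.88 in coat without hilum (-1.77 ± 0.15). The VEX1-type gene Glyma.13G169700, named for a gene of the pollen vegetative cell in Arabidopsis, had 2.60, 3.30, 0.895 and 2.20 in hilum, against 6.65, 6.32, 3.62 and 5.02 in coat without hilum (-1.01 ± 0.17). These groups did not overlap either. The other genes called lower at small or moderate levels were Glyma.20G082700, Glyma.06G200800, Glyma.04G238100, Glyma.06G125800 and Glyma.19G009900, whose log2 differences ran between -1.26 and -0.80.

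The dominant pair was the less clear case. Glyma.15G049200 had 145.96, 81.6, 109.8 and 138 in hilum, against 197, 145, 334 and 190.8 in coat without hilum, groups that overlapped at 145.96 and 145 (-0.83 ± 0.27, limma adjusted p = 0.0398). Glyma.08G183500 had 321, 197, 238 and 295 in hilum, against 398, 286, 643 and 366 in coat without hilum, and did not pass (-0.65 ± 0.28, adjusted p = 0.0998). The share of the pair in the SWEET sum was 38.6% to 51% in hilum and 52.6% to 71% in coat without hilum.

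Glyma.08G010000, an abundant MtN3-type gene, had 36.1, 56.6, 18.5 and 50.4 in hilum, against 76.9, 72.2, 63.2 and 83.2 in coat without hilum (-0.96 ± 0.31, limma adjusted p = 0.0400). The calls of Glyma.08G010000 and Glyma.15G049200 were lost without the filter on low values, after rescaling by the median ratio (adjusted p = 0.101 and 0.1003), and in 5 and 6 of the 8 fits that left out 1 library. Glyma.05G202700 had 65.1, 109.8, 33.7 and 101 in hilum, against 128.5, 135, 116 and 146.1 in coat without hilum, with no overlap but an adjusted p of 0.0710.

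Sucrose symporters changed in both directions at lower levels. The SUC1/7-type gene Glyma.16G156800 had 2.12, 3.28, 1.79 and 1.43 in hilum, against 8.86, 9.79, 8.79 and 8.01 in coat without hilum (-1.67 ± 0.13, limma adjusted p = 0.000105). Glyma.02G075000 belongs to the SUC2 type, named for the symporter that loads the phloem in Arabidopsis. It had 5.37, 10.2, 5.75 and 4.74 in hilum, against 16.2, 25.4, 22.0 and 18.3 in coat without hilum (-1.55 ± 0.22). With the rise of Glyma.16G157100, 3 of the 7 SUC genes tested were called, a share close to the 40% of all genes.

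Calls in lists of other sugar genes and tissue markers, here and in the next paragraph, stand against 40% of all genes called (13.4% higher, 26.6% lower). Of the cell wall invertases, which split sucrose outside cells, 3 of 3 tested were called higher in hilum. Monosaccharide and polyol transporters had 25 higher and 12 lower of 79 tested, sucrose synthases 2 higher and 0 lower of 9, neutral invertases 2 higher and 0 lower of 8, and plasma membrane proton ATPases, which build the gradient used by symporters, 5 higher and 4 lower of 19. Xylem markers had 5 higher and 1 lower of 9 tested, with a summed RPKM of 60.5 to 178 in hilum and 18.1 to 31.4 in coat without hilum.

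Phloem markers had 4 higher and 3 lower of 16 (sums of 89.0 to 113 in hilum and 71.5 to 105 in coat without hilum), and light-harvesting and Rubisco small subunit genes 0 higher and 11 lower of 35 (sums of 1262 to 1617 in hilum and 1444 to 2827 in coat without hilum). The Casparian strip family, known from root endodermis, had 19 higher and 1 lower of 34 (sums of 364 to 488 in hilum and 165.08 to 306 in coat without hilum). Embryo storage and oil body genes had 31 higher and 23 lower of 91, and floral MADS box genes 8 higher and 12 lower of 40. Neither list was particular to the tissue it is named for. The storage list summed to 12666 and 18116 in flooded roots, against 1548 to 2750 in whole seeds. The MADS list summed to 892 in the flower library, against 1577 to 1767 in whole seeds. The part of these tissue differences in the transporter values was not tested.

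Scaling mattered for the balance of calls. After rescaling by the median ratio of all genes, 9 transporter genes were called higher and 11 lower, and of all genes 5886 of 10680 called were higher, against 3930 of 11724 on the deposited scale. Between 50-100 mg and 25-50 mg, 0 of the 34 genes were called, against 1.07% of all genes (0.386% higher and 0.683% lower). An unadjusted p under 0.05 was found for 6 of the 34, against 7045 of all 29296 genes tested. Limma voom on recovered reads called 1 of the transporter genes and 2047 of all genes. The hilum-table libraries fall into 2 number series, and with the series as a block the VEX1-type genes Glyma.13G169700 (-0.59 ± 0.13, adjusted p = 0.0407) and Glyma.19G009900 (-0.56 ± 0.12, adjusted p = 0.0419) were called lower at 50-100 mg. That fit called 2632 of all genes, against 313 without the block. The hilum difference itself was not called to depend on stage for any of the 34 transporter genes, against 0.0137% of all genes (0.0102% higher and 0.00341% lower). An unadjusted p under 0.05 was found for 2 of the 34, against 1365 of all 29296 genes tested.

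Late coats expressed a partly different set of transporters from early coats. Coats of 300-500 mg seeds (8 libraries) were compared with coats of up to 100 mg (11 libraries) over Richland, T157, W43 and W44, with line in the limma model. Of the 69 genes 38 were tested, of which 17 were called higher and 11 lower in late coats and 10 did not pass. All genes tested gave a background of 57.7% called, 26.6% higher and 31.1% lower, so a call in this comparison is common. The median log2 difference was 0.11 for the tested transporters and -0.03 for all genes.

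The rises with the greatest fold were in MtN3-type SWEET genes. Glyma.13G041300 ranged over 3.34 to 82.5 in late coats (median 35.5) and 0.170 to 1.88 in early coats (median 0.440), without overlap (log2 difference 3.81 ± 0.31, SE, limma adjusted p = 3.71e-09). Glyma.14G160100 ranged over 2.22 to 36.0 in late coats (median 19.6) and 0.215 to 2.32 in early coats (median 0.496), and its lowest late library, from W44, lay just below its highest early one (2.86 ± 0.25). In the W44 and W55 coats both genes were at most a few RPKM.

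Glyma.06G167000 became one of the most abundant SWEET genes of the late coat. Its RPKM over increasing weight was 9.25, 52.1, 333 and 405 in Richland, 3.80, 56.6, 302 and 354 in T157, and 2.68, 7.86, 21.6, 249 and 238 in W43. In W44 it was 59.1 and 56.9 at 300-400 and 400-500 mg, against 29.2, 6.31, 23.6 and 4.15 in the earlier coats (10-50, 25-50, 75-100 and 50-100 mg). Late coats averaged 249.5 and early coats 19.7 over the 4 lines, and every late library was above every early one (3.73 ± 0.51, limma adjusted p = 3.90e-06).

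One neighbour by gene number, Glyma.06G166900, and a gene of another run on chromosome 4, Glyma.04G198400, rose as well. The chromosome 6 gene ranged over 16.6 to 143 in late coats (median 98.8) and 1.44 to 39.5 in early coats (median 7.27; 2.76 ± 0.50). Glyma.04G198400 ranged over 65.4 to 224 in late coats (median 86.2) and 2.34 to 56.1 in early coats (median 27.7; 2.44 ± 0.48). For Glyma.04G198400 the groups did not overlap, and for Glyma.06G166900 the W44 late coats lay within the early range. The other members of these runs, Glyma.06G166800, Glyma.04G198500 and Glyma.04G198600, had late medians of 7.58, 11.7 and 6.03, against early medians of 8.44, 27.6 and 15.5.

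The dominant SAG29-type pair rose only modestly. Glyma.08G183500 was 745 and 839 in late Richland coats, against 417 and 633 in early ones, and 903 and 935 in late T157 coats, against 369.6 and 554 in early ones. It was 950.3 and 963 in late W43 coats, against 386, 417 and 692 in early ones, and 822 and 702 in late W44 coats, against 659.5, 638, 774 and 239 in early ones. The late W55 coats, not in this fit, had the highest values of all at 1200.1 and 1196.

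Over the 8 late and 11 early libraries the log2 difference of Glyma.08G183500 was 0.78 ± 0.25 (limma adjusted p = 0.0129). Glyma.15G049200 had a median of 332 in late coats (199 to 432) and 222 in early coats (76.7 to 312), a log2 difference of 0.66 ± 0.27 (adjusted p = 0.0416). The ranges of both genes overlapped, and neither call held without the filter on low values or when either late weight was left out. For Glyma.15G049200 the call was also lost in 11 of the 19 fits without 1 library, and within the 4 W44 libraries with consecutive numbers the difference was -0.18.

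**Figure D3:**
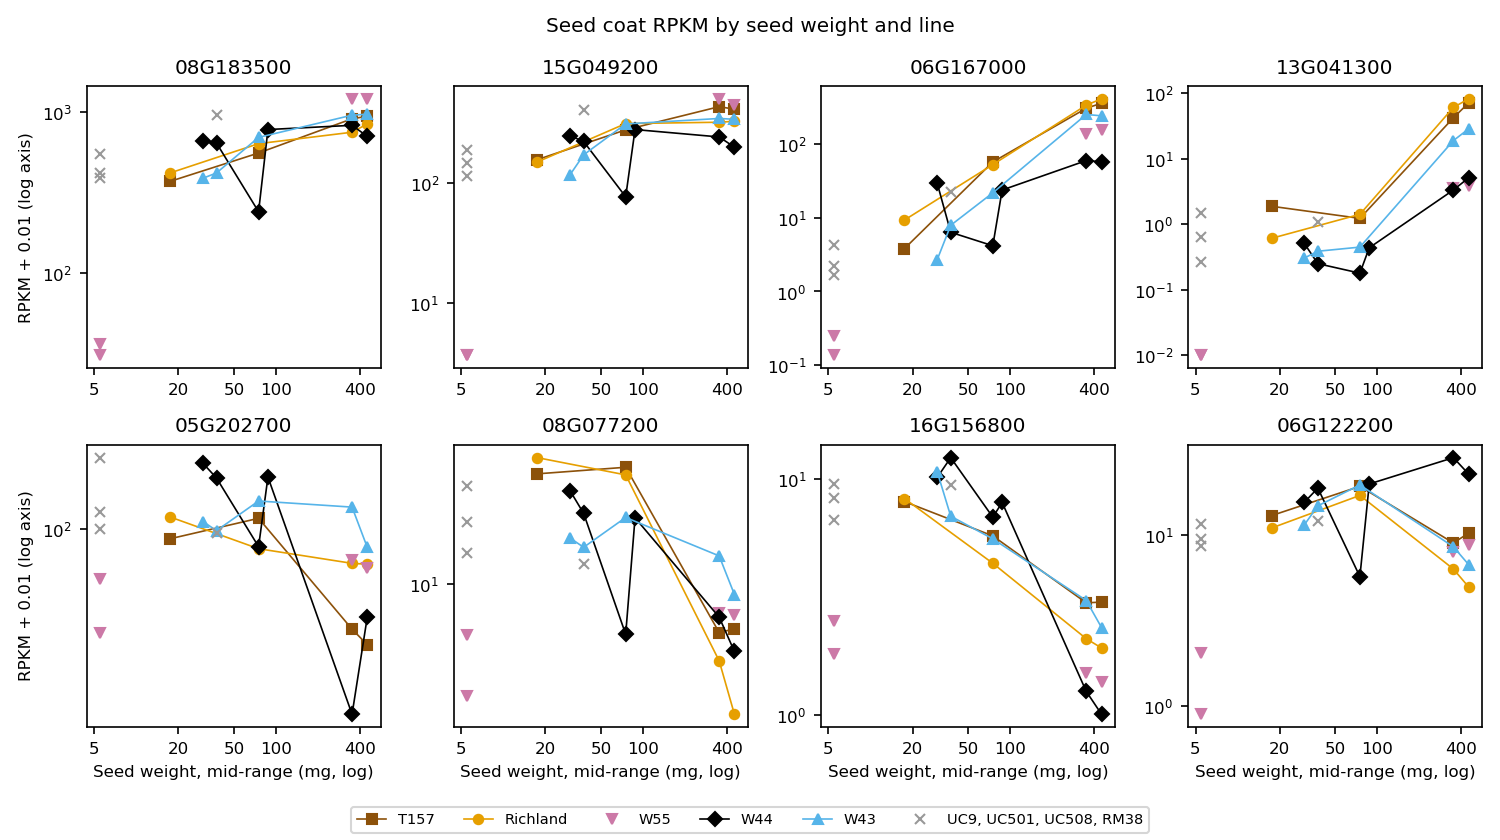
RPKM + 0.01 (log axis) of 8 transporter genes against the middle of the seed weight range in mg, by line; W55 points are not joined. Glyma.13G041300 and Glyma.06G167000 are higher at 300-500 mg in Richland, T157, W43 and W44, and of these lines W44 has the lowest late values. Glyma.16G156800 is lower at 300-500 mg in the same lines.

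Further rises were found at lower levels. The 3 genes whose family text names both the SWEET family and glycosyl hydrolase family 16 were all called higher in late coats. Glyma.06G200800 averaged 9.14 in late and 2.01 in early coats, and Glyma.20G015700 averaged 5.93 in late and 2.81 in early coats. Glyma.19G066300 averaged 9.30 in late and 7.47 in early coats. Its best Arabidopsis match is a xyloglucan endotransglucosylase/hydrolase (XTH16), and only the family text placed it among the SWEET genes. Glyma.20G082700 averaged 8.30 in late and 1.68 in early coats (1.80 ± 0.17), and Glyma.06G200200 averaged 9.34 in late and 2.78 in early coats (1.45 ± 0.18). The SUC4-type gene Glyma.02G218600, a type that in Arabidopsis resides in the vacuolar membrane, averaged 6.29 in late and 2.80 in early coats (0.95 ± 0.14).

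The genes that fell in late coats were led by the second SAG29-type pair and by VEX1-type genes. Glyma.05G122200 ranged over 0.423 to 4.64 in late coats (median 1.57) and 3.28 to 45.6 in early coats (median 20.04), with a log2 difference of -3.08 ± 0.36 (limma adjusted p = 4.00e-07). Glyma.08G077200 ranged over 1.44 to 15.2 in late coats (median 5.00) and 4.74 to 65.3 in early coats (median 28.6; -2.39 ± 0.39). The only early coat within the late range of either gene was the W44 coat of 50-100 mg, which stands apart in its alignments.

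Glyma.13G169700 ranged over 0 to 0.730 in late coats (median 0.0773) and 3.23 to 21.8 in early coats (median 7.86; -2.85 ± 0.22). The related Glyma.19G009900 ranged over 0 to 0.404 in late coats (median 0.0466) and 1.68 to 17.5 in early coats (median 4.97; -2.45 ± 0.26). Neither gene's groups overlapped, and in the late W43 coats Glyma.19G009900 had 0 reads.

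Among the abundant genes that fell, Glyma.08G010000 ranged over 4.78 to 40.9 in late coats (median 18.4) and 40.9 to 113 in early coats (median 58.3; -1.85 ± 0.29). Glyma.05G202700 ranged over 12.8 to 127.9 in late coats (median 52.8) and 80.6 to 208 in early coats (median 113; -1.33 ± 0.32). The SUC1/7-type Glyma.16G156800 ranged over 1.00 to 3.05 in late coats (median 2.22) and 4.39 to 12.3 in early coats (median 7.94; -1.47 ± 0.18). The SUC2-type symporter Glyma.02G075000 also fell, averaging 11.6 in late and 18.4 in early coats (-0.66 ± 0.19).

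The hilum genes Glyma.04G198600 and Glyma.04G241400 were among those called lower in late coats, with averages of 7.07 in late and 15.6 in early coats for Glyma.04G198600 and 6.06 in late and 9.43 in early coats for Glyma.04G241400. These coats were not described as freed of hilum, and the hilum share of a coat at each weight was not measured. The abundant genes that did not pass were Glyma.04G198500, Glyma.06G122200, Glyma.06G166800 and Glyma.08G025100, with log2 differences between -0.65 and 0.12.

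Around these genes, monosaccharide and polyol transporters had 16 higher and 41 lower of 75 tested in late coats, sucrose synthases 3 higher and 2 lower of 7, neutral invertases 2 higher and 1 lower of 8, and plasma membrane proton ATPases 9 higher and 7 lower of 19. None of the 8 cell wall invertases reached the level needed for a test. The list counts here stand against 57.7% of all genes called, 26.6% higher and 31.1% lower. Light-harvesting and Rubisco small subunit genes had 1 higher and 34 lower of 35, with a sum of 117 to 306 in late coats and 495.5 to 1816 in early coats. Phloem markers had 10 higher and 2 lower of 18, and xylem markers 1 higher and 5 lower of 8, and their part in the transporter values was not tested. The late libraries of Richland, T157 and W43 carry consecutive library numbers, apart from their early ones, so age and library run cannot be told apart there. Within the 4 W44 libraries with consecutive numbers, late against early gave 26 calls, 12 higher and 14 lower. Of these, 22 were among the 28 of the whole comparison. Over all genes this W44 fit called 15353, of which 6620 were higher, against 16886 and 7798 in the whole comparison. Without the W44 coat of 50-100 mg that stands apart, the whole comparison again called 28 transporter genes.

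The late rise of some SWEET genes was smaller in W44, and this difference was tested as an interaction after the W44 values had been seen. Of the 38 genes tested 6 were called, 4 lower and 2 higher in W44, against a background of 1.05% of all genes (0.762% higher, 0.290% lower). Glyma.13G041300 reached 3.34 and 5.13 in late W44 coats, against 60.9 and 82.5 in late Richland, 42.3 and 71.6 in late T157 and 19 and 28.7 in late W43 coats. The late change in W44 was smaller by 2.62 ± 0.34 on the log2 scale (limma adjusted p = 0.000714). The late W55 coats, at 3.61 and 3.80, lay near the W44 values of this gene, but not near those of all 6. Scaled to alignments in described models, Glyma.04G241400 had 5.93 and 5.84 in late W55 coats, against 15.6 and 13.9 in late W44 coats. On that scale Glyma.06G125800 had 1.97 and 1.62 in late W55 coats, against 0.0640 and 0.284 in late W44 coats.

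Glyma.14G160100 showed the same order, with 2.22 and 3.29 in late W44 coats, against 28.2 and 36.0 in late Richland, 24.8 and 33.4 in late T157 and 8.86 and 14.3 in late W43 coats (-1.98 ± 0.33, limma adjusted p = 0.00679). Glyma.06G125800 was at 0.0566 and 0.252 in late W44 coats, against 2.75 to 8.32 in the late coats of the other lines (-2.19 ± 0.42), and Glyma.14G120300 was at 0.518 and 0.341, against 1.24 to 4.60 (-1.65 ± 0.39). In the opposite direction Glyma.04G241400 was at 13.8 and 12.3 in late W44 coats, against 2.26 to 4.74 in the others (1.71 ± 0.33), and Glyma.15G149800 at 3.90 and 3.73, against 0.589 to 1.27 (1.20 ± 0.23).

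These calls depend on few libraries. With all 19 libraries 6 genes were called, without W44 replicate 5 (300-400 mg) only 1, without W44 replicate 6 (400-500 mg) 2, and without W44 replicate 4 (the 50-100 mg coat that stands apart) 12. Rescaling by the median ratio gave 15 calls (2482 over all genes), scaling to described alignments 12 (2238) and limma voom on recovered reads 2 (300). Of all genes called, 223 of 308 were higher in W44 on the deposited scale and 1075 of 2482 after rescaling. The late W44 libraries are numbered in another run than those of the other lines, so line and library run cannot be told apart.

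Genes called in hilum and genes called in late coats overlapped in a mixed way. Of the 13 genes lower in hilum (53.8% of them) and the 11 lower in late coats (63.6%), 7 were the same: the SAG29-type pair Glyma.05G122200 and Glyma.08G077200, the VEX1-type pair Glyma.13G169700 and Glyma.19G009900, Glyma.08G010000, and the symporters Glyma.02G075000 and Glyma.16G156800. A further 3 genes were lower in hilum and higher in late coats (Glyma.06G200800, Glyma.15G049200 and Glyma.20G082700), and 3 were higher in hilum and lower in late coats (Glyma.04G198600, Glyma.04G241400 and Glyma.13G264400). Only Glyma.16G157100 was called higher in both. Of the 34 transporter genes tested in both comparisons 20.6% were lower in both, against 13.4% of all 27741 genes tested in both. The hilum comparison and the weight comparison share no library.

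**Figure D4:**
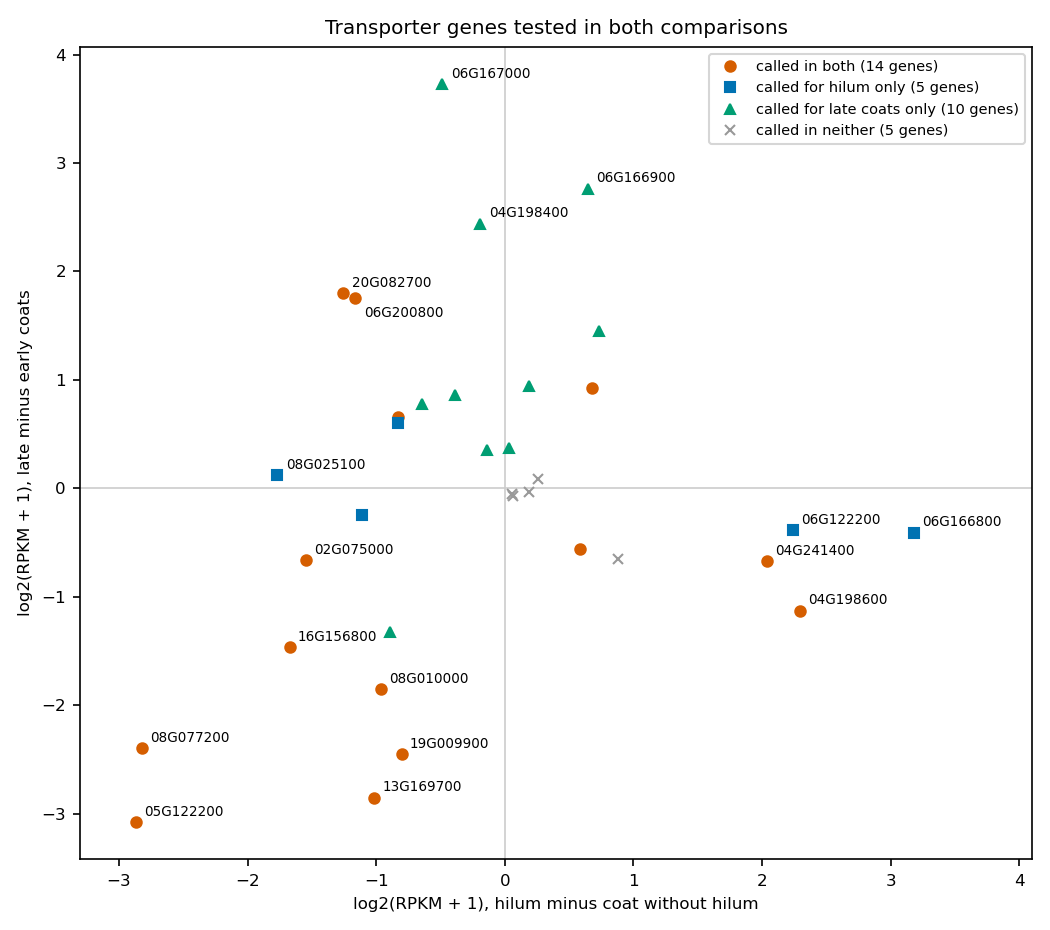
Log2 difference of hilum minus coat without hilum (horizontal axis) against late minus early coats (vertical axis) for the 34 genes tested in both, coloured by which comparison called them. Of these, 14 were called in both, 5 in hilum alone, 10 in late coats alone and 5 in neither (41.2%, 14.7%, 29.4% and 14.7%), against 25.3%, 14.7%, 31.2% and 28.8% of all genes tested in both.

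In 4 runs of genes with neighbouring numbers, chosen after their values were seen, not all members were highest in the same tissue. Other neighbours shared their highest tissue, such as Glyma.04G088900 and Glyma.04G089200 (flower) and Glyma.18G301100 and Glyma.18G301200 (flooded root at 12 h). On chromosome 6, Glyma.06G166800 was highest in hilum (41.4 to 61.9) and leaf (20.1 to 52.8), whereas Glyma.06G166900 and Glyma.06G167000 were highest in late coats and had at most 0.00662 in leaf. On chromosome 4, Glyma.04G198600 was highest in hilum (53.9 to 81.8) and leaf (40.8 to 66.6), whereas Glyma.04G198400 and Glyma.04G198500 had 0 reads in leaf. Glyma.04G198500 also had its maximum in hilum, with 41.6, 36.4, 11.8 and 52.8 there.

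Among the symporters, Glyma.02G075000 was a coat gene, with a median of 18.97 in early coats and 0.104 to 0.133 in root, while its neighbour Glyma.02G075100 had 47.5 in the flower library and 14.3 to 15.3 in root but a median of 1.27 in early coats. On chromosome 16, Glyma.16G156900 and Glyma.16G157000 had 199 and 210.4 in the flower library, 1.20 to 4.72 in W55 whole seeds and almost nothing elsewhere. Glyma.16G156800 beside them was a coat gene, and Glyma.16G157100 was highest in flower (23.1) and root (16.4 to 22.0), with 4.21 to 5.07 in leaf, 1.65 to 3.90 in late coats and 1.48 to 3.28 in hilum. The flower values made Glyma.16G156900 and Glyma.16G157000 the most abundant symporters of the series, although their reads may be shared.

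**Figure D5:**
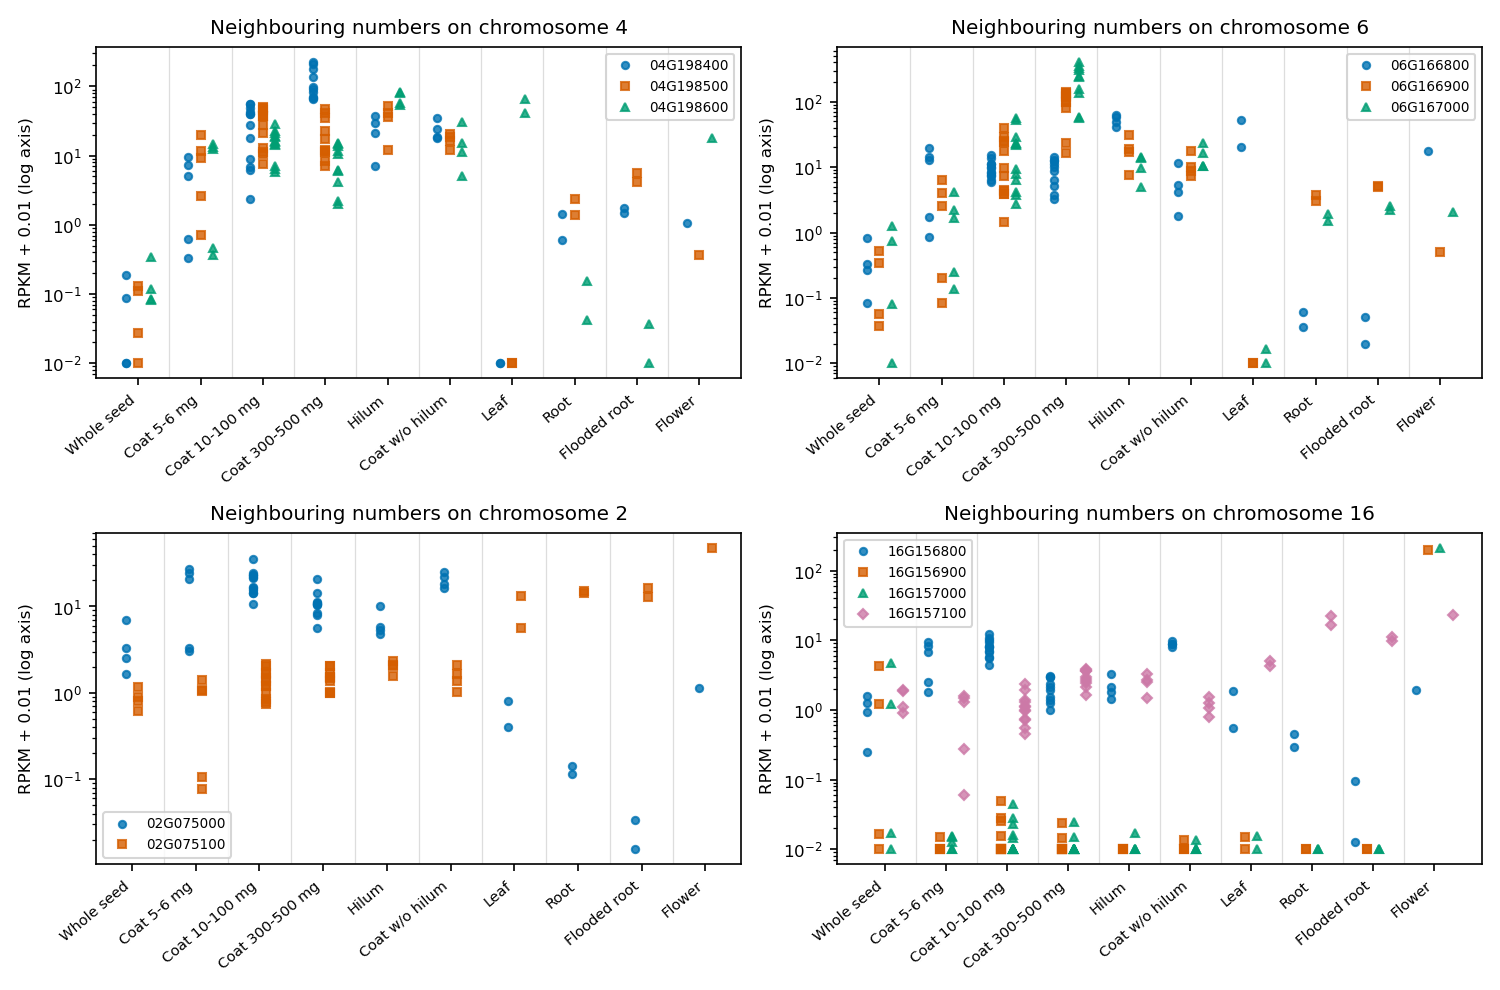
RPKM by tissue for 4 runs of genes with neighbouring numbers on chromosomes 4, 6, 2 and 16. Each run holds members that peak in different tissues, for example Glyma.06G166800 in hilum and leaf and Glyma.06G167000 in late coats.

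When lines of different coat colour were compared over equal seed weights, no transporter gene passed the adjusted threshold. These fits do not test the late change of W44 given above, for which 6 genes were called. Between T157 and Richland coats of equal weight 0 of 38 genes were called by limma (0% of all genes), and limma voom also called 0. An unadjusted p under 0.05 was found for 13 of the 38, against 4647 of all 29080 genes tested. The genes with the smallest p were lower in T157: Glyma.20G082700 averaged 2.13 in T157 and 5.76 in Richland (log2 difference -1.05 ± 0.10, adjusted p = 0.137), and Glyma.06G200200 averaged 3.02 in T157 and 7.06 in Richland (-0.96 ± 0.10, adjusted p = 0.144). The dominant gene Glyma.08G183500 averaged 690.4 ± 275 in T157 and 658 ± 181.7 in Richland (SD, n = 4 each), with a log2 difference of 0.02 ± 0.21.

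In W44 against W43, 0 of 38 were called (0% of all genes, voom also 0). An unadjusted p under 0.05 was found for 6 of the 38, against 1658 of all 28909 genes tested. Glyma.08G183500 averaged 612 ± 220 over the 5 W44 coats at weights shared with W43 and 682 ± 278 over the 5 W43 coats (-0.16 ± 0.50). The 75-100 mg W44 coat had no W43 counterpart. Without the 50-100 mg W44 coat that stands apart the count was again 0, and the difference of Glyma.08G183500 was 0.18 ± 0.31. W55 against W43 came from the same fit as W44 against W43, which held W44, W43 and late W55 coats with weight as a block. It gave 0 of 38 (voom also 0), against 0.304% of all genes, 0.0761% higher and 0.228% lower. An unadjusted p under 0.05 was found for 10 of the 38, against 1235 of all 28909 genes tested. When any 1 of the 12 libraries was left out, the W44 coat that stands apart among them, the count was 0 to 2.

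Whole seeds at 5 days after flowering held little of the coat SWEET genes. Compared with young coats (5-6 mg for W55, 10-25 mg for T157 and Richland), 2 of 33 genes tested were called higher and 15 lower, against a background of 29.4% of all genes (27.2% higher, 2.25% lower). The median log2 difference was -0.65 for the tested transporters and 0.90 for all genes. Whole seed and coat differ in stage as well as in tissue, and a whole seed contains a coat.

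Glyma.08G183500 had 14.9 and 16.4 in W55, 34.3 in T157 and 29 in Richland whole seeds, against 30.8 and 36.3 in W55, 369.6 in T157 and 417 in Richland coats (-2.32 ± 0.58, limma adjusted p = 0.00375). Glyma.15G049200 had 2.86 and 3.03 in W55, 4.39 in T157 and 5.74 in Richland whole seeds, against 3.67 and 3.67 in W55, 156 in T157 and 149.7 in Richland coats (-2.46 ± 0.62). The difference was far smaller in W55, whose coat libraries stand apart. Per described alignment Glyma.08G183500 came to 18.2 and 18.3 in W55 whole seeds and 269.8 and 187 in W55 coats.

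The second SAG29-type pair was also low in whole seeds. Glyma.08G077200 averaged 1.33 in whole seeds and 30.8 in coats (-3.23 ± 0.55), and Glyma.05G122200 averaged 1.14 in whole seeds and 21.5 in coats (-3.08). With T157 and Richland alone these log2 differences were -4.45 and -3.91, and per described alignment -4.25 and -4.14.

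Glyma.05G202700 averaged 24.3 in whole seeds and 73.4 in coats (-1.46, limma adjusted p = 0.0418), and the difference was -1.68 with T157 and Richland alone and -2.66 per described alignment. On that scale the W55 coats had 276 and 297 of Glyma.05G202700, against 31.5 and 57.5 as deposited. For the dominant pair, T157 and Richland alone gave -3.60 for Glyma.08G183500 and -4.68 for Glyma.15G049200. The 2 genes called higher, Glyma.06G125800 and Glyma.10G217900, were at 3.09 to 5.85 and 2.21 to 3.79 in whole seeds.

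With the T157 and Richland libraries alone 25 transporter genes were called, 1 higher and 24 lower, of which 16 were among the 17 of the whole comparison. With the W55 libraries alone 17 were called, 9 higher and 8 lower. Over all genes the fit to T157 and Richland called 9164, of which 4768 were higher, and the fit to W55 called 24148, of which 23728 were higher. Of all genes called, 7737 of 8377 were higher in whole seeds on the deposited scale and 3163 of 6171 after rescaling by the median ratio, where 2 transporter genes were higher and 21 lower. Cell wall invertases stood the other way, with 6 of 6 tested called higher in whole seeds, against 27.2% of all genes. Floral MADS box genes had 41 higher and 1 lower of 58 (sums of 1577 to 1767 in whole seeds and 142 to 1289 in coats), the Casparian strip family 15 higher and 0 lower of 35, light-harvesting and Rubisco small subunit genes 8 higher and 0 lower of 34, and embryo storage and oil body genes 21 higher and 12 lower of 84. As given for hilum, the storage and MADS lists were not particular to the tissues they are named for. The part of all these lists in the transporter values was not tested.

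Leaves used few transporter genes at a high level and roots used others. Leaves (T157 and Richland) against roots (W55 and W54) gave 4 higher and 11 lower of 22 genes tested, against a background of 58% of all genes (19.4% higher, 38.6% lower), and the organs came from different lines. Glyma.04G198600 had 40.8 and 66.6 in leaf, against 0.0327 and 0.145 in root (log2 difference 5.61 ± 0.28). The MTN3 homolog Glyma.06G166800 had 20.1 and 52.8 in leaf, against 0.0258 and 0.0516 in root (5.02 ± 0.45).

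Glyma.08G009900 had 6.96 and 8.24 in leaf, against 0.00932 and 0.0341 in root. Root genes included Glyma.06G125800, with 0.0514 and 0.0182 in leaf, against 43.7 and 28.2 in root (-5.13), and Glyma.14G160100, with 0.163 and 0.169 in leaf, against 32.9 and 35.3 in root (-4.91). Glyma.14G160100 and Glyma.13G041300, which rose in late coats, were thus also root genes, Glyma.13G041300 having 0.217 and 0.215 in leaf, against 9.45 and 8.41 in root. The symporter Glyma.16G157100 had 4.21 and 5.07 in leaf, against 16.4 and 22.0 in root (-1.83).

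In flooded seedling roots, with 1 library per time and no replicate check, 2 of 28 genes were at least 2-fold higher at 24 h than at 12 h and 0 lower, against 4.91% of all genes higher and 1.07% lower. Glyma.04G238100 had 99.7 at 24 h and 49.0 at 12 h, and Glyma.06G125800 had 99.1 at 24 h and 48.5 at 12 h. Below that fold, Glyma.14G160100 had 38.6 at 24 h and 19.7 at 12 h, and Glyma.13G041300 had 22.5 at 24 h and 11.8 at 12 h. The SAG29-type genes Glyma.08G360500 and Glyma.18G301100 had 18.1 and 17.3 at 24 h and 21.0 and 21.1 at 12 h, against 1.39 to 1.87 in roots of unflooded plants of 4 wk, which differ in age as well as in flooding. An unflooded seedling root was not analysed here.

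The flower library was the only tissue in which symporters exceeded SWEET genes, with sums of 558 for SUC and 288 for SWEET. Of its 16 genes at 10 or more, Glyma.05G202700 (64.5), Glyma.08G010000 (40.1) and Glyma.08G025100 (29.8) were also abundant in coats, whereas Glyma.17G090800 (15.1) and Glyma.05G036500 (11.6) were at or near 0 in all other tissues. The other genes at this level ranged between 11 and 24.2, apart from Glyma.02G075100, Glyma.16G156900 and Glyma.16G157000 given above.

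Coats of 5-6 mg from the defective isoline UC508 and from Harosoy UC501 were also single libraries. Between UC508 and UC501, 1 of 36 genes was at least 2-fold higher and 1 at least 2-fold lower on the RPKM + 1 scale (0.187% and 0.398% of all genes). Glyma.05G122200 had 29.3 in UC508 and 13.2 in UC501, and Glyma.04G198500 had 9.27 in UC508 and 20.02 in UC501. Glyma.08G183500 had 417 in UC508 and 547 in UC501, and among the remaining single coats 385 in UC9 (5-6 mg) and 952 in RM38 (25-50 mg).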

How the data were processed

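The deposited values are RPKM, which the authors scaled to cDNA length and to M (mega) of alignments counted over 88647 transcript models, in a table of 38 libraries and a hilum table of 8. Reads were mapped with Bowtie, per the submitters' processing notes, for which the sources used here state no version, setting or build. Libraries were made with TruSeq or Stranded TruSeq kits, per the labels' protocols, and counting by strand is not stated. RPKM times cDNA length and library total gave whole reads within 0.01 reads for 100% of values, which yields the totals and the floor of 3 reads; floors cover counting error only. The 4 columns that no label describes were not used.

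The model with the longest cDNA stood for each gene. After adding 1 to RPKM and taking log2, limma 3.58.1 (R 4.3.3; lmFit, then eBayes with its trend option) compared groups. Genes whose RPKM averaged under 1 in the fitted libraries were left out, p-values were adjusted by Benjamini-Hochberg over all remaining genes, and an adjusted p under 0.05 made a call. Fold changes on this scale understate those of low genes. The fit was tested on simulated data. Other steps used python 3.11.15, pandas 2.3.3, numpy 2.4.6 and matplotlib 3.10.9.

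The members, gene lists and tests were chosen with earlier results of these data known. Named are called members whose RPKM averaged 5 or more in the higher group, members at 10 or more in any group, the pair Glyma.15G049200 and Glyma.08G183500, and in single libraries members at 10 or more. Genes outside this rule that are named, such as those of the W44 comparison, were chosen after their values were seen. The list for vacuolar invertases matched 0 genes. Library numbers in the hilum table fall into 2 series whose deviations had correlations of 0.44 to 0.66, and a fit with the series as a blocking term was added. Alternatives covered the pseudocount (0.1), the filter, rescaling by the median ratio, limma voom on recovered reads, scaling to described alignments and leaving out each library.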

Additional observations from a re-analysis of the deposited data

Results flagged for a closer look

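Of 67 sets of 4 to 8 libraries examined for a library far from the others, 7 were picked out. Chance gives about 1 in 20 only for independent sets of like libraries. These sets mix lines, weights or stages and share libraries, so 7 cannot be weighed against that rate. In coat without hilum, the second repeat of 50-100 mg had 39.3 RPKM of Glyma.05G122200 (others 21.3 to 22.9) and 54.4 of Glyma.08G077200 (others 27.3 to 29.5). The T157 whole seed had 4.19 RPKM of Glyma.05G122200 (others 0 to 0.325), 5.88 of Glyma.08G025100 (others 0.356 to 0.792) and 5.13 of Glyma.08G077200 (others 0 to 0.183). All of them were called lower in whole seeds than in young coats. Glyma.08G025100 was not particular to young coats, with medians of 14.5 in late and 13.6 in early coats. The T157 coat of 400-500 mg had 0.730 RPKM of Glyma.13G169700 (others 0 to 0.307) and 0.404 of Glyma.19G009900 (others 0 to 0.135), both genes of the early coat.

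The late change differed between W44 and the other lines for several SWEET genes, by the limma interaction. The difference on the log2 scale was -2.62 for Glyma.13G041300, -2.19 for Glyma.06G125800, -1.98 for Glyma.14G160100, -1.65 for Glyma.14G120300, 1.71 for Glyma.04G241400 and 1.20 for Glyma.15G149800. Glyma.06G122200 missed the threshold (1.75, limma adjusted p = 0.0518), but each late W44 coat was above each early W44 coat (28.2 and 22.6 RPKM, against 5.69 to 19.8), while each late coat of Richland, T157 and W43 was below each early coat of its line.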

How the results depend on the processing

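In hilum the count of called transporter genes was 19, with 16 to 20 when 1 library was left out and 19 to 23 under the other settings; of 168 values for named genes 15 lost the call, 0 reversed and the others kept both. Late against early coats gave 28 calls, 25 to 29 when 1 library was left out and 19 to 31 otherwise (19 with 400-500 mg left out). Of 644 values 616 kept direction and call, 26 lost the call and 2 reversed, both within the 4 W44 libraries with consecutive numbers: 0.17 for Glyma.04G241400 and -0.18 for Glyma.15G049200. For the late change of W44 the 6 calls became 15 after rescaling, 2 with voom, 12 per described alignment and 1 to 12 when 1 library was left out. Over all genes 308 calls became 2482 after rescaling, 300 with voom and 2238 per described alignment. For stage the 0 calls became 1 with voom (2047 over all genes) and 2 when the hilum library series entered the fit (2632 over all genes). In that series fit hilum had 21 calls, 7 higher and 14 lower, and 14763 over all genes, against 11724 without the series. W55 against W43 gave 0 to 2 calls when 1 library was left out. Whole seeds gave 7 calls without the filter and 9 to 17 when 1 library was left out, against 17; the count was 9 without W55 5-6 mg coat replicate 2 and 9 without W55 whole seed replicate 1. Leaf against root gave 28 calls without the filter and 14 to 23 when 1 library was left out, against 15 (23 without the T157 leaf). Without the filter the leaf fit called 24866 of all genes, against 18412 with it. The cause of these changes was not tested. In W55, same-numbered whole seed and coat libraries did not deviate together (correlation -0.08, 2 pairs), and the replicate block on the W55 libraries alone gave 15 calls, 9 higher and 6 lower. An edgeR fit on recovered reads, listed as an alternative, was not run, and voom took its place.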
